A study of Mus musculus with 2 samples.

Results

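The genes described here encode 8 Tudor domain proteins of germ granules: Tdrd1, Tdrd5, Tdrd6, Tdrd7, Tdrd9, Tdrd12, Tdrkh and Rnf17. They were taken by name, from every non-control probe whose gene symbol, or older symbol traced through the gene ID, is one of these. The rule used no signal, but earlier results of these data were known when the set was chosen. The array carried 12 such probes for the 8 genes, out of 20161 genes with a named probe. Tdrd1, Tdrd5, Tdrd12 and Tdrkh had 2 probes each and the other 4 genes had 1 each. Tdrd12 was listed under an older clone name.

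Both groups came from MCH mouse embryos of day 14.5, from their male gonads, and all of these carried a transgene labelled Tg-Nanos2 enhancer-3xFLAG-Nanos2-3'UTR, so that no group lacked the tagged protein. One group was RNA recovered with anti-FLAG M2 agarose (FLAG IP) and the other was input RNA. Each group had 2 one-colour Agilent arrays, which the series text describes as biological duplicates. A precipitate from gonads without the transgene was not analysed here, and whether gonads of several embryos were pooled is not stated in the sources used here.

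Germ granules are clouds of RNA and protein in the cytoplasm of germ cells, many of them beside mitochondria. In the fetal testis they hold the machinery of piRNAs, the small RNAs that guide PIWI proteins to transposon transcripts. A Tudor domain folds into a pocket that binds methylated arginine, and PIWI proteins carry such arginines near their amino terminus. Tudor proteins thereby act as scaffolds that bring PIWI proteins, nucleases and helicases together. NANOS2 is an RNA-binding protein of male germ cells that lies partly in cytoplasmic granules. The comparison asked whether transcripts of the Tudor genes took a higher or lower share of the RNA recovered with NANOS2 than of the input.

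Of the 8 genes, 7 were tested, 2 of them rose in FLAG IP and 0 fell in limma at an adjusted p under 0.05 (3 higher and 0 lower at an unadjusted p under 0.05). Tdrd1 rose by 1.28 ± 0.19 on the log2 scale (SE; 2.42-fold) and Tdrd5 by 0.78 ± 0.19 (1.71-fold), while Tdrd7, Tdrd6, Tdrd12, Tdrkh and Tdrd9 had estimates between 0.33 and 0.85 that did not pass. Over all 15266 genes tested, 28.0% were called higher and 25.4% lower, so the 2 of 7 members (28.6%) called higher lay near the background share; 53.4% of all genes were called in either direction. Their median log2 fold change was 0.68, against 0.07 over all genes, and 7 of 7 estimates were above 0, as were 52.1% of all genes, though Tdrd6 lay below 0 after quantile normalization, Tdrd9 after normexp background correction and Tdrkh without FLAG IP replicate 2. The median of 0.68 is the estimate of Tdrd6, which includes a value not well above background. After normexp the order of the medians turned, to 0.16 for the members and 0.38 for all genes. With no filter on dim probes, they were 0.73 and 0.55. With the filter set to all 4 arrays, which left Tdrd6 out, they were 0.64 and 0.19. Without FLAG IP replicate 1 they were 0.79 and 0.07, and without FLAG IP replicate 2 they were 0.43 and 0.15. The input and FLAG IP arrays did not overlap for 6 of the 7 tested members (Tdrd6 among them) and for 80.2% of all genes tested. Such a separation was thus common over all genes and is given below only to describe the values. Testing required a probe that the scanner software marked well above background throughout input or throughout FLAG IP, so these counts do not speak for Rnf17.

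Levels are given as relative signal, which is the processed signal of a probe divided by the 75th percentile of its array, and n is 2 arrays per group throughout. That percentile was 1026 to 1038 intensity units in input, and 55.7 and 608 in FLAG IP replicates 1 and 2. The lowest relative signal of any probe marked well above background was 0.147 on FLAG IP replicate 1 and 0.00933 to 0.0160 on the other 3 arrays, so that dim probes went unmeasured on that 1 array. The median SD between duplicates was 0.060 in input and 0.304 in FLAG IP, in log2 units. With 1 array left out, the spread came only from the group that kept its duplicates. Over all genes tested, calls were then rarer without an input array and more common without a FLAG IP array. Calls gained or lost in those settings are therefore not particular to the members or to any list. Input replicate 1 lay on slide 1, and input replicate 2 and both FLAG IP arrays lay on slide 2. Slide as a block therefore gave each tested member the same estimate as leaving out input replicate 1, and these settings are not separate checks. Fold changes are differences in share within each RNA pool. In whole gonads, the number of cells of a type and the amount of a transcript per cell cannot be told apart.

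**Figure D1:**
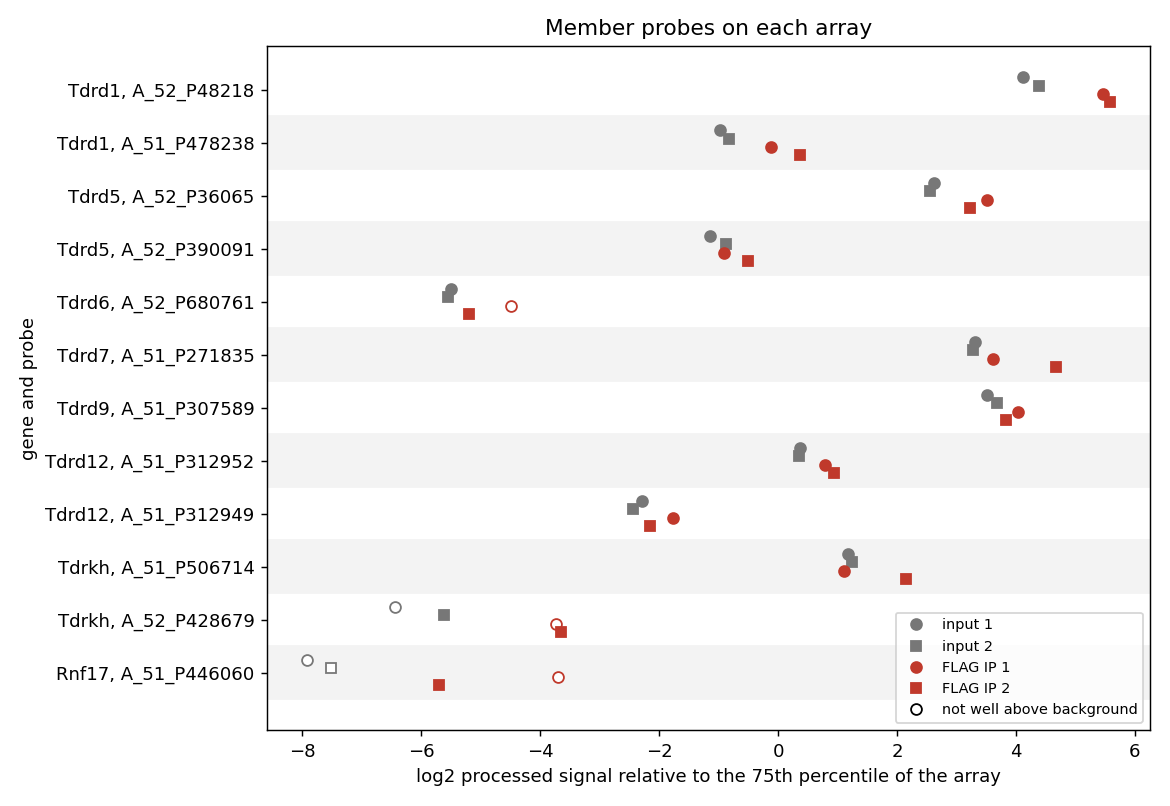
Each row is 1 probe of a member gene, and the horizontal axis is the log2 of the processed signal relative to the 75th percentile of the array. Grey points are input arrays, red points FLAG IP arrays, circles replicate 1 and squares replicate 2, and open symbols are probes not well above background on that array. The Tdrd1 points separate by group on both probes, and the FLAG IP points of Tdrd7 and Tdrkh (A_51_P506714) lie 2.07-fold and 2.06-fold apart.

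Tdrd1 encodes a scaffold with several Tudor domains that binds PIWI proteins in the granules between mitochondria. On its probe A_52_P48218 the relative signal was 17.3 and 20.9 on the input arrays and 44.1 and 48.1 on the FLAG IP arrays. Both FLAG IP arrays lay well above both input arrays, and the FLAG IP arrays differed by only 1.09-fold. The increase of 2.42-fold had an adjusted p of 0.00858 in limma, and a larger log2 fold change than 82.2% of all genes tested. The second probe, A_51_P478238, read 0.506 and 0.565 in input and 0.920 and 1.30 in FLAG IP. It also separated the groups and, with every probe tested on its own, rose by 1.03 ± 0.25 (adjusted p = 0.0365 in limma), so the probes of this gene went the same way. The call was lost without input replicate 1 (1.14, adjusted p = 0.175 in limma), without input replicate 2 (1.41, adjusted p = 0.0935), with slide as a block (1.14, adjusted p = 0.138) and after normexp background correction (0.90, adjusted p = 0.159).

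Tdrkh, Tdrd9 and Tdrd12 also act in piRNA production. Tdrkh encodes a protein anchored at mitochondria that takes part in trimming piRNA precursors. Its probe A_51_P506714 read 2.25 and 2.35 in the input, and 2.15 and 4.43 in FLAG IP replicates 1 and 2. FLAG IP replicate 1 therefore lay below both input arrays and replicate 2 above them, and the groups overlapped. The estimate was 0.42 ± 0.40 (adjusted p = 0.418 in limma), with a 95% interval from -0.67 to 1.52. It became 0.95 without FLAG IP replicate 1 (adjusted p = 0.00371 in limma, the lone array being assumed to vary like the other group) and -0.10 without FLAG IP replicate 2 (adjusted p = 0.352). The other Tdrkh probe, A_52_P428679, was well above background on 1 array of each group and was not tested; it read 0.0115 and 0.0204 in input and 0.0749 and 0.0797 in FLAG IP.

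Tdrd9 encodes a helicase with a Tudor domain that works with the nuclear PIWI protein of fetal germ cells. Its relative signal was 11.4 and 12.9 in input and 16.3 and 14.2 in FLAG IP. Both FLAG IP arrays lay above both input arrays. The log2 fold change was 0.33 ± 0.18 (adjusted p = 0.195 in limma), with a 95% interval from -0.17 to 0.82, the smallest estimate among the tested members. It was 0.43 without FLAG IP replicate 2, where it passed (adjusted p = 0.0289 in limma), and -0.40 after normexp background correction (adjusted p = 0.477).

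Tdrd12 encodes a helicase-like Tudor protein needed for piRNAs that are made by cleavage of transposon transcripts. Probe A_51_P312952 read 1.29 and 1.27 in input and 1.72 and 1.91 in FLAG IP. Both FLAG IP arrays lay above both input arrays. The estimate of 0.50 ± 0.16 did not pass (adjusted p = 0.0639 in limma), and its 95% interval ran from 0.05 to 0.95. Probe A_51_P312949 read 0.204 and 0.185 in input and 0.293 and 0.225 in FLAG IP, a change of 0.41 ± 0.22 (adjusted p = 0.204 in limma with every probe on its own). The probes of Tdrd12 thus gave like values, and neither passed. The first probe stood at 0.58 without FLAG IP replicate 1 and at 0.43 without FLAG IP replicate 2. It passed with eBayes trend and robust settings (adjusted p = 0.0414 in limma) and with the filter set to all 4 arrays (adjusted p = 0.0409).

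Tdrd5, Tdrd7, Tdrd6 and Rnf17 are best known from granules of later male germ cells. Tdrd5 carries a LOTUS domain beside its Tudor domain and is needed to assemble the chromatoid body, the large granule of spermatids. Its probe A_52_P36065 read 6.18 and 5.87 in input and 11.4 and 9.32 in FLAG IP. Both FLAG IP arrays lay above the input, and the increase of 1.71-fold passed (adjusted p = 0.0300 in limma, 95% interval 0.26 to 1.30 on the log2 scale). The second probe, A_52_P390091, read 0.452 and 0.543 in input and 0.536 and 0.706 in FLAG IP. Those groups overlapped, and the probe, at 0.31 ± 0.23, did not pass (adjusted p = 0.341 in limma with every probe on its own), so the call for Tdrd5 rests on 1 of its 2 probes. The call was lost without input replicate 1 (adjusted p = 0.312 in limma), without input replicate 2 (adjusted p = 0.328), with the replicate block (adjusted p = 0.0576), with slide as a block (adjusted p = 0.280), with no filter on dim probes (adjusted p = 0.0742) and after normexp background correction (0.16, adjusted p = 0.765).

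Tdrd7, a relative of Tdrd5 with LOTUS domains, serves in the same granule and also in the lens of the eye. Its single probe read 9.89 and 9.73 in the input, and 12.3 and 25.5 in FLAG IP replicates 1 and 2. Both lay above the input, one by 1.26-fold and the other by 2.60-fold. The SD of the FLAG IP duplicates was 0.74 on the log2 scale against 0.02 in the input, and the estimate of 0.85 ± 0.40 did not pass (adjusted p = 0.144 in limma, 95% interval -0.24 to 1.95). Without FLAG IP replicate 1 it was 1.38 (adjusted p = 0.00181 in limma) and without FLAG IP replicate 2 it was 0.33 (adjusted p = 0.0261), the lone array again being assumed to vary like the other group. Tdrkh shared this gap between the FLAG IP arrays, and the log2 difference Tdrd7 minus Tdrkh was 2.14 and 2.05 on the input arrays and 2.52 on both FLAG IP arrays.

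Tdrd6, which encodes a large multi-Tudor protein that shapes the chromatoid body, was near the limit of measurement. Its relative signal was 0.0221 and 0.0214 in input and 0.0273 on FLAG IP replicate 2. On FLAG IP replicate 1 it was not well above background, and the value of 0.0443 there lay under the lowest measured signal of that array. The estimate of 0.68 ± 0.29 (adjusted p = 0.120 in limma) includes that value. Without FLAG IP replicate 1 it was 0.33, and without FLAG IP replicate 2, which rests on the unmeasured value alone, it was 1.02. After quantile normalization it was -0.52 (adjusted p = 0.484 in limma) and after normexp 1.52 (adjusted p = 0.229).

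Rnf17, a RING finger gene with Tudor domains whose protein forms granules of its own in male germ cells, rose above background on FLAG IP replicate 2 alone, with a processed signal of 11.6 intensity units. The processed signals on the other arrays were 4.25 and 5.63 in input and 4.28 on FLAG IP replicate 1. Rnf17 was therefore not among the genes tested with all 4 arrays, and no fold is given. It entered the fit only with no filter on dim probes, where it was not called, and without FLAG IP replicate 1, where it was called higher in limma (adjusted p = 0.00474) against input values that were not above background.

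**Figure D2:**
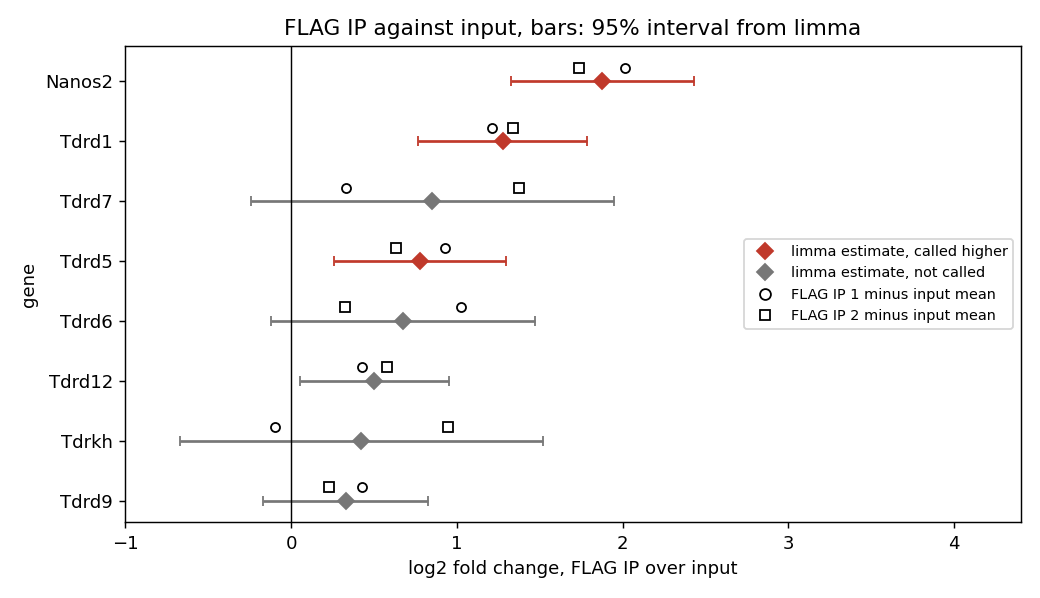
The horizontal axis is the log2 fold change of FLAG IP over input, with diamonds for the limma estimate and bars for its 95% interval (n = 2 arrays per group). Open circles and squares are FLAG IP replicates 1 and 2 minus the input mean. Nanos2 is shown beside the 7 tested members. The bars of Tdrd1, Tdrd5 and Tdrd12 lie above 0 but the adjusted p of Tdrd12 is 0.0639, and the replicate symbols of Tdrkh lie on both sides of 0.

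**Figure D3:**
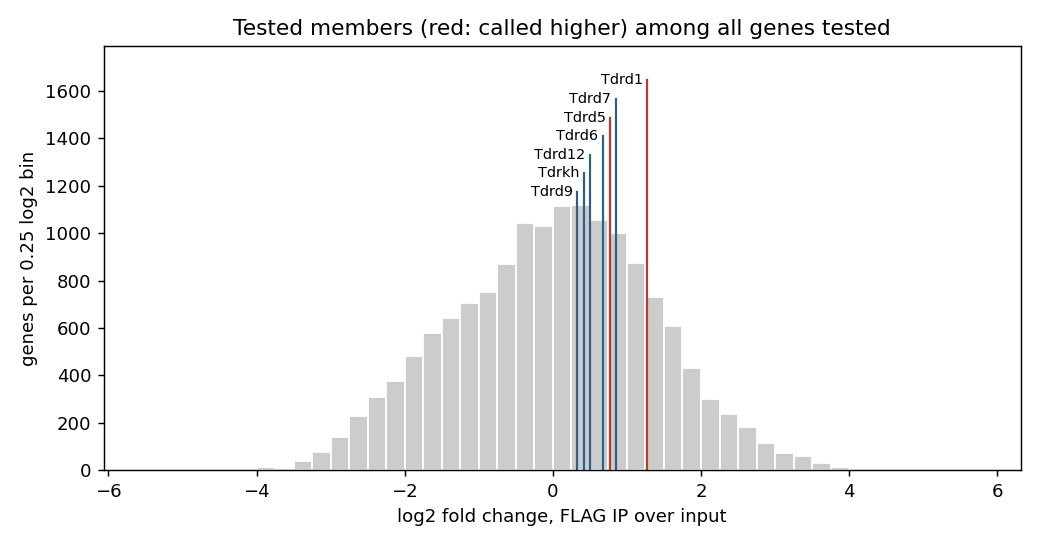
Grey bars count all 15266 genes tested by log2 fold change of FLAG IP over input, in bins of 0.25. Vertical lines mark the tested members, red for those called higher, and their heights only place the labels. The members lie between 0.33 and 1.28, with Tdrd9 above 57.4% and Tdrd1 above 82.2% of all genes.

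The members were next compared with each other within each array, where any scaling of a whole array drops out; only the change of such a difference between groups is read, since probes differ in brightness. These differences were added after the data were seen. The log2 difference Tdrd1 minus Tdrd9 was 0.60 and 0.70 on the input arrays and 1.43 and 1.76 on the FLAG IP arrays, a change of 0.95. Tdrd1 minus Tdrd12 was 3.75 and 4.04 in input and 4.68 and 4.66 in FLAG IP, a change of 0.77. Tdrd1 thus gained on both genes on each FLAG IP array. Each such change equals the difference between the log2 fold changes of both genes. Tdrd1 had the highest estimate of the tested members, so its changes under the main setting had to be positive. They are not separate support for Tdrd1. Over all 21 pairs of members, 8 did not overlap, and 5 of these were among the 6 pairs with Tdrd1. Against Tdrd5 the change was 0.50 (0.29 to 0.71 over the arrays left out in turn) and against Tdrkh it was 0.85 (0.39 without FLAG IP replicate 1 and 1.31 without FLAG IP replicate 2). Against Tdrd7 it was 0.42, the groups overlapped, and the values were -0.038 without FLAG IP replicate 1 and 0.88 without FLAG IP replicate 2. Against Tdrd6, which was not measured on FLAG IP replicate 1, it was 1.01 without that array. After normexp background correction the changes were 1.29 against Tdrd9, 0.78 against Tdrd12, 0.74 against Tdrd5, 0.84 against Tdrkh and 0.73 against Tdrd7. With 2 arrays against 2, the smallest p that the two-sided exact permutation test can give is 0.333, so no pair could pass.

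Nanos2, the transcript of the tagged protein, served as a reference. Its relative signal was 0.398 and 0.337 in input and 1.48 and 1.22 in FLAG IP, a rise of 3.67-fold (adjusted p = 0.00477 in limma, and 0.0674 without input replicate 1 and 0.0583 without input replicate 2), and whether its probe also reads the transgene is not known here. Within arrays, Nanos2 gained 0.60 on the log2 scale on Tdrd1 (0.35 to 0.85 over the arrays left out in turn) and 1.55 on Tdrd9 (1.35 to 1.75), with 0.74 and 2.03 after normexp. These gains restate the larger fold change of Nanos2 and are not separate support for it. The gain on Tdrd6 was 1.41 without FLAG IP replicate 1, where Tdrd6 was not measured, and 0.12 after normexp with all 4 arrays.

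Related genes were taken from lists of Tudor domain genes and of their partners. Beside the counts of each list stand the shares over all genes tested, 28.0% higher and 25.4% lower. PIWI proteins and their partners in germ granules had 6 of 13 tested genes higher and 0 lower in limma (0 lower also at an unadjusted p under 0.05), with a median log2 fold change of 0.50. Ddx4, the helicase gene that marks germ granules, rose by 1.69 ± 0.26, and Henmt1, whose product methylates the end of piRNAs, by 1.36 ± 0.24. Piwil1, which encodes a PIWI protein known mainly from later stages, was also called higher, at 0.98 ± 0.25, and Asz1, a granule scaffold gene, at 0.86 ± 0.16. At the other end Fkbp6, a co-chaperone gene, stood at -0.32 ± 0.15 and Piwil2, the gene of the PIWI protein that TDRD1 binds, at -0.28 ± 0.76, and neither passed (Fkbp6 lay at 0.46 after quantile normalization). Of the 2 Fkbp6 probes tested on their own, the lowest stood at -0.91 and 1 was called lower. With the mean of a gene's probes the list had 6 genes higher and 1 lower. Piwil2 read 2.99 and 3.84 in the input, and 1.35 and 5.76 in FLAG IP replicates 1 and 2. Its FLAG IP arrays lay on both sides of the input, as they did for Tdrkh. Mael, a granule gene, read 28.2 and 27.2 in input and 22.1 and 46.8 in FLAG IP, with an estimate of 0.21 ± 0.41 that was -0.41 after normexp. The count of PIWI list genes called higher was 0 without input replicate 1 and without input replicate 2, 9 without FLAG IP replicate 1 (2 lower) and 8 without FLAG IP replicate 2 (4 lower). It was 1 after normexp background correction and 0 with slide as a block.

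Of 6 tested Tudor domain genes that act on RNA outside this set, 1 was higher and 0 lower in limma (3 and 1 at an unadjusted p under 0.05), with a median of 0.70. For this list the count higher was 0 with slide as a block, 2 with the replicate block and 3 with the filter set to all 4 arrays. Akap1, which tethers RNA and kinases to mitochondria, rose by 1.58 ± 0.16 on the log2 scale, with relative signals of 1.03 and 1.04 in input and 3.20 and 3.00 in FLAG IP. Stk31, a germ cell gene with a Tudor and a kinase domain, read 4.31 and 5.16 in input and 7.34 and 12.1 in FLAG IP and did not pass (adjusted p = 0.0564 in limma). Smn1, the survival motor neuron gene, stood at -0.93 ± 0.32 and Snd1, a nuclease gene, at -0.35 ± 0.21, and neither passed (Smn1 lay at 0.11 after normexp). The count higher was 0 without input replicate 1 and without input replicate 2, 4 without FLAG IP replicate 1 (2 lower) and 3 without FLAG IP replicate 2 (1 lower).

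Tudor domains also occur in chromatin proteins, where they bind methylated histones. Of 17 such genes, 9 were higher and 0 lower in limma (10 and 1 at an unadjusted p under 0.05), with a median of 0.88. Phf20, a subunit of a histone acetyltransferase complex, rose by 2.05 ± 0.43, and Lbr, the lamin B receptor gene, by 2.03 ± 0.20, whereas Phf19, of a Polycomb complex, stood at -0.47 ± 0.16 and the demethylase gene Kdm4a at -0.40 ± 0.19, without passing. The Tudor genes of chromatin are not known as germ granule genes, and their median lay above that of the germ granule members (0.68). The difference between the lists was not tested. Without input replicate 1 the count higher was 0, and without input replicate 2 it was 2. It was 4 after normexp background correction and 3 with slide as a block. With every probe on its own, 8 genes of the list had a probe called higher and 3 a probe called lower. With the mean of a gene's probes 7 were higher and 2 lower, Kdm4a among the lower ones (-0.60, adjusted p = 0.0495 in limma).

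The list of arginine methylation held enzymes that make methylated arginine and their partner proteins, with 1 of 8 tested genes higher and 3 lower in limma and a median of -0.13. Of its 4 methyltransferases, 0 were higher and 2 lower in limma (0 higher also at an unadjusted p under 0.05), and Prmt5 was not called, at -0.28 ± 0.22. The single gene called higher was Wdr77, the partner of Prmt5, at 0.75 ± 0.17. That call was lost after normexp (0.22, adjusted p = 0.632 in limma), with the mean of its probes (0.34, adjusted p = 0.148), with the replicate block (adjusted p = 0.0615), with slide as a block (adjusted p = 0.275) and with no filter on dim probes (adjusted p = 0.0611). Prmt1, the main enzyme for asymmetric arginine methylation, fell by 2.37 ± 0.16 on the log2 scale, from 36.9 and 36.2 in the input to 6.71 and 7.41 in FLAG IP. Carm1, another methyltransferase gene, fell by 0.86 ± 0.16 (not called after normexp or with slide as a block). Riok1, an adaptor of Prmt5, fell by 1.42 ± 0.21. The count lower was 2 after normexp and 1 with slide as a block, so Prmt1 and Riok1 were not both called lower with slide as a block. Of the 4 Wdr77 probes tested on their own, 1 was called higher. Without input replicate 1, 0 of these genes were called in either direction; without input replicate 2, 0 were higher and 1 lower; without FLAG IP replicate 1, 3 were higher and 4 lower; and without FLAG IP replicate 2, 2 were higher and 3 lower.

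**Figure D4:**
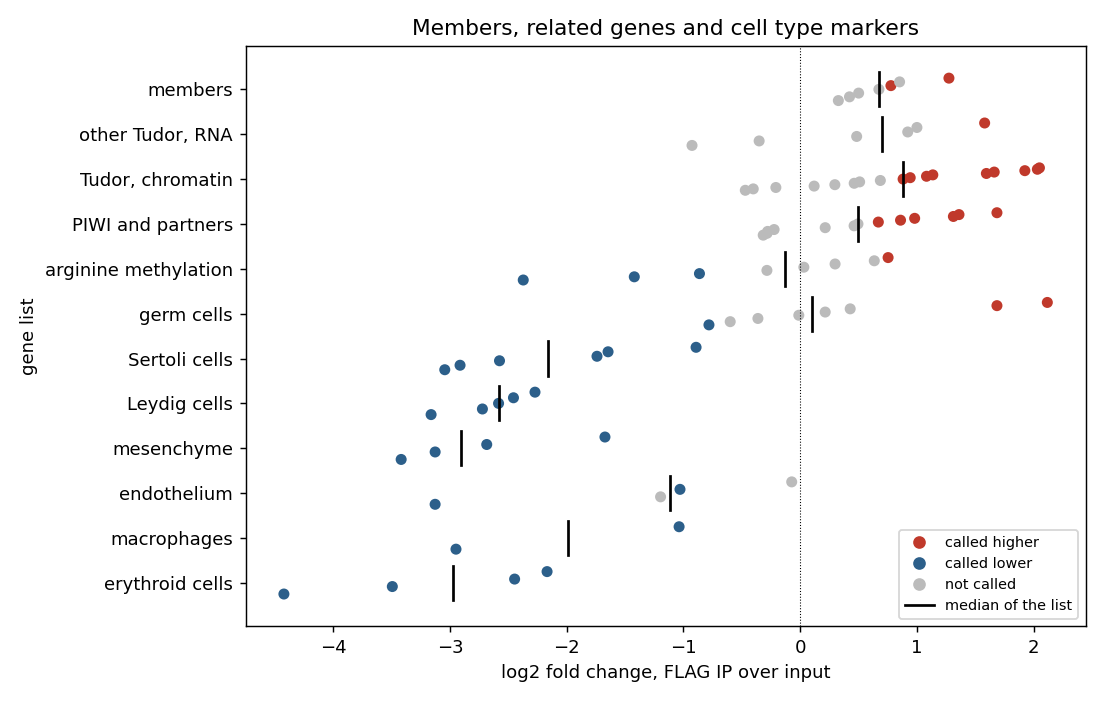
Each point is a tested gene, placed by its log2 fold change of FLAG IP over input, with 1 row per gene list and a black line at the median of the list. Red points were called higher and blue points lower in limma at an adjusted p under 0.05, and grey points were not called. The members (median 0.68) lie to the right of 0, and 6 of 6 Sertoli, 5 of 5 Leydig, 4 of 4 mesenchyme and 4 of 4 erythroid markers are blue.

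Markers of somatic cells moved with this comparison. In limma 6 of 6 Sertoli, 5 of 5 Leydig, 4 of 4 mesenchymal, 2 of 4 endothelial, 2 of 2 tested macrophage and 4 of 4 erythroid markers were lower. Without input replicate 1 no gene tested was called in either direction, so that setting does not speak for these lists. Without input replicate 2 fewer Sertoli, mesenchymal, endothelial and macrophage markers were called lower. After normexp the count lower was 3 for Sertoli, 0 for endothelial and 1 for macrophage markers, and with slide as a block 3, 1 and 1. The summed relative signal of the Sertoli markers was 43.6 to 44.9 in input and 7.83 to 8.79 in FLAG IP, and that of the Leydig markers 126 to 139 and 19.26 to 20.01. For the mesenchymal markers it was 165 to 172 and 18.1 to 24.6, for the erythroid markers 162 to 172 and 14.6 to 18.4, for the endothelial markers 3.35 to 3.99 and 1.40 to 2.29, and for the macrophage markers 3.61 to 3.70 and 0.503 to 0.614. The germ cell markers, whose sum was 75.2 to 79.3 in input and 111 to 135 in FLAG IP, had 2 of 8 higher (Ddx4 and Dazl) and 1 lower (Dnd1), with a median of 0.10; without input replicate 1 or input replicate 2 it had 0 higher and 0 lower, and without FLAG IP replicate 1 or FLAG IP replicate 2 it had 3 higher, with 1 and 3 lower. After normexp and with slide as a block, 1 germ cell marker was higher and 0 were lower. The count of germ cell markers lower was also 0 after quantile normalization, with no filter on dim probes and with the replicate block. On FLAG IP replicate 1 the relative signals of Tie1 (0.040), Cd68 (0.092) and Hba-x (0.082) lay under the lowest measured signal of 0.147. With the filter set to all 4 arrays, the count lower was 1 for endothelial, 1 for macrophage and 3 for erythroid markers. The labelled tissue carried germ cell, Sertoli and Leydig markers in the input. The part that these shifts have in the values of the Tudor genes was not tested.

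Over the 4 arrays, the genes whose centred log2 profile lay nearest to the mean profile of the tested members were Serac1, Fzd5 and Itpkc, at Euclidean distances of 0.0069, 0.029 and 0.036 log2 units. With 4 arrays many profiles are alike, and 2161 genes lay within 0.5 log2 units of that profile, while the median distance of the members themselves was 0.61.

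In the authors' deposited table the ratio of FLAG IP to input was above 1 for 12 of 12 member probes, 9 of them well above background on all 4 arrays, and for 64.2% of all its 41174 probes, whose median ratio was 1.53. In the authors' deposited table it was 2.22 and 1.88 for the probes of Tdrd1, 1.58 and 1.14 for those of Tdrd5, 1.66 for Tdrd7 and 1.15 for Tdrd9. For Tdrd12 the authors' ratio was 1.30 and 1.22, for Tdrd6 1.47 and for the Tdrkh probe A_51_P506714 1.23. These ratios, that of Tdrd9 and the lower one of Tdrd5 lay below the median ratio of 1.53. The highest values of the authors' deposited table, 7.38 for Rnf17 and 4.47 for a Tdrkh probe, belong to the probes that were not well above background on both arrays of either group.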

How the data were processed

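RNA from FLAG IP and input was measured on 4 one-colour arrays. Per the file headers, the deposited processed signal of each spot is a background-corrected intensity from Agilent Feature Extraction 9.5 (version per the submitters' processing notes). The authors' table gives a ratio and a p-value per probe, from values the authors pooled by group; the p-value deposited there stayed unused.

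Processed signals were scaled to the 75th percentile of each array's non-control spots and taken to log2. Outlier spots were set to missing (no member spot was one). Gene IDs gave RefSeq (GRCm38.p6) names to 31004 of 41174 probes, older symbols to 309 and the file's symbol to 1263; 8598 had none. Probes marked well above background throughout input or throughout FLAG IP entered, and the probe with the highest mean stood for its gene. The groups were compared in limma 3.58.1 under R 4.3.3 (lmFit, eBayes, two-sided, 2 residual and 2.08 prior degrees of freedom), with Benjamini-Hochberg adjustment over 15266 genes and a threshold of 0.05. The script was tested on simulated data. Named genes were the members, Nanos2, and from each list mainly the 2 highest and 2 lowest. The members and lists were chosen with earlier results of these data known. Alternatives were other background corrections, scalings, filters, probe rules, variance settings, blocks and each array left out. Their use on the lists, Nanos2, medians and within-array differences was added after the data were seen.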

Additional observations from a re-analysis of the deposited data

How the results depend on the processing

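The 2 members called higher became 0 after normexp background correction (8.33% of all genes), 0 with slide as a block (9.37%), 1 with the replicate block (27.1%) and 1 with no filter on dim probes (16.8%). Without any 1 array it was 0 to 7: 0 without input replicate 1 (0% of all genes) or input replicate 2 (7.18%), 7 of 8 tested without FLAG IP replicate 1 (41.0%), of which 1 was Rnf17, and 6 without FLAG IP replicate 2 (44.7%). The count lower was 0 under the main setting and each alternative. The replicate numbers are not shown to pair the samples: across genes the deviations of input replicate 1 and FLAG IP replicate 1 correlated at 0.050. Leaving out input replicate 1, limma called 0 of all genes higher and 0 lower; by unadjusted p under 0.05 these counts were 2731 and 2538.

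Of 104 values of single members under the alternatives, 81 kept direction and side of the threshold, 10 lost and 10 gained a call. The other 3 changed sign. These were Tdrd6 at -0.52 after quantile normalization, Tdrd9 at -0.40 after normexp and Tdrkh at -0.10 without FLAG IP replicate 2. Over the arrays left out, Tdrkh ranged from -0.10 to 0.95. Both filter changes, the eBayes settings, the replicate block, separate probe fits and retained outlier spots left member estimates unchanged, so direction could not turn. Slide as a block and leaving out input replicate 1 gave the same estimates, yet both are counted. Of the 81, 11 were of Tdrd1 and 9 of Tdrd5, and the rest were of uncalled members that stayed uncalled. The 81 are therefore not separate checks. Tdrd1 minus Tdrd6 within arrays was -0.63 after normexp, and Tdrd1 minus Tdrd7 ranged from -0.038 to 0.88 over the arrays left out. Among the other named genes, Piwil2 ranged from -1.33 to 0.76 and Mael from -0.33 to 0.76 over the arrays left out, Mael was -0.41 and Smn1 0.11 after normexp, and Fkbp6 was 0.46 after quantile normalization. Normexp moved the median of all genes from 0.07 to 0.38 and that of the members from 0.68 to 0.16, so the members minus all genes went from 0.60 to -0.23. The cause was not tested. Signal over background limits Tdrd6, Rnf17 and 1 Tdrkh probe.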
